A study of Homo sapiens with 6 samples.

Results

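Amino acid transporters are described here through 10 genes measured in this study: SLC7A5, SLC3A2, SLC1A5, SLC1A4, SLC7A1, SLC38A1, SLC38A2, SLC6A9, SLC43A1 and SLC36A1. They were chosen by symbol, by a rule that uses no measured value but was set with earlier results of these data known, and all 10 were found among the 60612 gene identifiers of the expression files. All 10 also passed the filter on low values, a mean over the 6 libraries of 0.5 FPKM or more. MDA-MB-231, an established human triple-negative breast cancer (TNBC) cell line, carried a control hairpin (Sh-NC, genotype given as WT) or a hairpin against YAP1 (Sh-YAP1, genotype given as YAP1 knockdown). Both groups were sampled at day 3, without treatment, with 3 libraries each, and the study grew this line in Leibovitz's medium, which is rich in free amino acids. The labels name 1 Sh-YAP1 group with no hairpin sequence and no clone, so an effect of the hairpin outside YAP1 and an effect of YAP1 cannot be told apart. The study states for its data in general that they came from independent experiments, but the labels tie no library to a culture of its own, so p-values measure only the spread between these libraries, part of which may be technical.

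Cells take up amino acids through carriers of several families. SLC7A5 (LAT1) brings in leucine and other large neutral amino acids in exchange for intracellular glutamine, and it reaches the cell surface only when paired with the heavy chain SLC3A2 (CD98). SLC1A5 (ASCT2) and the sodium-coupled carriers SLC38A1 and SLC38A2 bring in glutamine and other small neutral amino acids. YAP1 is a transcriptional coactivator that works mainly through TEAD factors, and SLC7A5 and SLC38A1 have been linked to YAP1 in other systems. The comparison asks which transporter genes differed once YAP1 was reduced.

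YAP1 itself was at 28.1, 26.2 and 22.9 FPKM under Sh-NC and at 3.35, 2.67 and 2.58 FPKM under Sh-YAP1, so the targeted gene went with the labels (difference on the log2(FPKM + 1) scale -2.79, adjusted p = 0.0018, limma). FPKM counts fragments relative to the length of a transcript and to the mapped fragments of the library, and gene values are sums over transcripts. Values of single libraries are listed here and below in the order of their replicate numbers. The depth of the libraries is unknown. Between 13037 and 13219 genes per library reached 1 FPKM. The 5 markers of basal or mesenchymal breast lines (VIM, AXL, EGFR, CD44 and CAV1) summed to between 2430 and 3100 FPKM under Sh-NC and to between 2430 and 2680 FPKM under Sh-YAP1. Of these 5, AXL fell (256 ± 5.23 and 200 ± 9.28 FPKM, SD, n = 3 each, adjusted p = 0.0390, limma), and the other four did not pass the test. CAV1 among them was at 329, 342 and 342 FPKM under Sh-NC and 251, 273 and 170 FPKM under Sh-YAP1, without overlap (mean change of -31.5%, adjusted p = 0.126, limma). All 5 had negative differences, and VIM made up most of their sum. Of 6 luminal markers, ESR1, PGR and CDH1 were under the filter. The sum was 8.76 to 11.5 FPKM under Sh-NC and 7.78 to 10.9 FPKM under Sh-YAP1. GATA3 made up most of it, with means of 6.20 and 5.72 FPKM, and EPCAM had means of 2.94 and 2.67 FPKM. FOXA1 had means of 0.90 and 0.483 FPKM, lower in Sh-YAP1 without overlap (adjusted p = 0.187, limma). Fibroblast markers summed to 1.82 to 3.32 FPKM under Sh-NC and 0.30 to 1.64 FPKM under Sh-YAP1, with 4 of 5 under the filter and COL1A2 at 1.40 ± 0.51 and 0.297 ± 0.38 FPKM (SD, n = 3 each, adjusted p = 0.101, limma). PTPRC and CD14 were under the filter and CD3E was listed at 0, and the immune markers summed to 56.5 to 78.9 FPKM under Sh-NC and 65.4 to 81.1 FPKM under Sh-YAP1, nearly all of it CD68. The part of these markers in the results below was not tested.

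After YAP1 knockdown, SLC7A5 was the only one of the 10 transporters that passed the test, and it fell. Differences are given on the log2(FPKM + 1) scale as Sh-YAP1 minus Sh-NC, with p-values from limma adjusted over all 14770 genes tested (Benjamini-Hochberg), and a gene is called at an adjusted p under 0.05. SLC7A5 was thus 1 of 10 members called, beside 3.38% of all genes tested, and 1 of 10 called lower, beside 1.62%. The groups did not overlap for 7 of the 10 genes, beside 29.4% of all genes tested. Of these 7, SLC7A5, SLC3A2, SLC7A1, SLC1A4 and SLC36A1 had the lower values in Sh-YAP1, 5 of 10 beside 14.7% of all genes tested, and SLC38A2 and SLC6A9 had the higher ones, 2 of 10 beside 14.6%. An unadjusted p under 0.05 was reached by 5 of the 10, beside 21.9% of all genes tested. The median difference was -0.14 over the 10 genes and 0.00 over all genes tested, and the median size was 0.24 and 0.16, respectively. In bulk RNA, a change in every cell and a change in the share of cells that express a gene cannot be told apart.

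**Figure D1:**
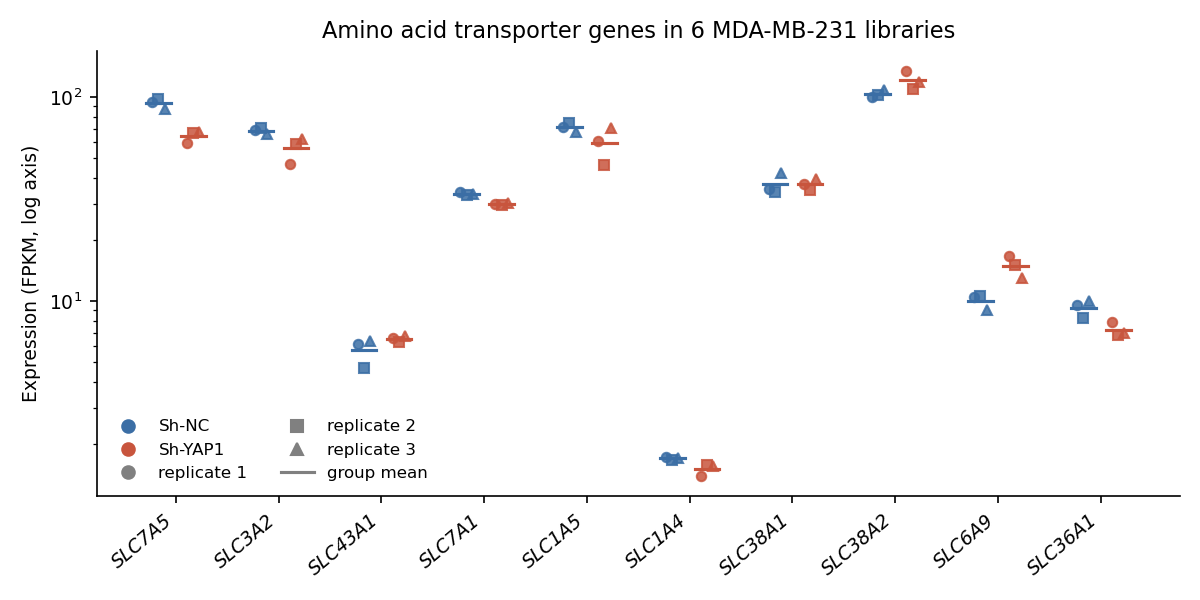
Expression in FPKM on a log axis for each transporter gene (x axis) in the 3 Sh-NC (blue) and 3 Sh-YAP1 (red) libraries, with symbols for the replicate number and a line at the group mean. The SLC7A5 values lie between 87.7 and 98.4 FPKM under Sh-NC and between 59.8 and 67.2 FPKM under Sh-YAP1, while the SLC38A1 values of the groups overlap.

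SLC7A5 (ENSG00000103257) lies on the minus strand of chromosome 16, from 87830023 to 87869488 in the GENCODE 29 annotation of GRCh38. Its expression was 94.3, 98.4 and 87.7 FPKM under Sh-NC and 59.8, 66.8 and 67.2 FPKM under Sh-YAP1. Every Sh-YAP1 library was below every Sh-NC library. On average SLC7A5 decreased by 30.9%, from 93.4 ± 5.40 FPKM to 64.6 ± 4.18 FPKM (SD, n = 3 each). The difference was -0.53 (standard error 0.08, 95% interval -0.72 to -0.34, adjusted p = 0.0252, limma). With 3 libraries on each side, an exact permutation test (two-sided) cannot go below p = 0.1, the value it had here. The call was lost without the filter on low values (adjusted p = 0.107, limma) and when any of the 6 libraries was left out. With a library left out, the differences were -0.57 to -0.47 and adjusted p-values from limma ran from 0.0559 (without Sh-NC replicate 3) to 0.0961 (without Sh-NC replicate 1), with those for the other four libraries in between.

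A single transcript entry held 99.9% of the SLC7A5 total, so that the gene value is in practice the value of 1 transcript. This entry had an unadjusted p of 0.00149 and an adjusted p of 0.348 (limma, over 77655 transcripts). Near-identical copies of SLC7A5 could take some of its reads. The copy SLC7A5P2 was at 0.15 to 0.67 FPKM, and SLC7A5P1 was listed at 0 in all 6 libraries. With both copies added to SLC7A5, the difference was -0.52 (adjusted p = 0.0255, limma).

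The region before the SLC7A5 start is shown because this is the transporter that fell. The 250 bases upstream (RefSeq, GRCh38.p14, chr16:87869508-87869757, minus strand, 5′ to 3′) have a GC content of 79.6%, and the capitals mark the E-box CACGTG, a motif bound by MYC and related factors, which begins 130 bases before the start.
SLC7A5: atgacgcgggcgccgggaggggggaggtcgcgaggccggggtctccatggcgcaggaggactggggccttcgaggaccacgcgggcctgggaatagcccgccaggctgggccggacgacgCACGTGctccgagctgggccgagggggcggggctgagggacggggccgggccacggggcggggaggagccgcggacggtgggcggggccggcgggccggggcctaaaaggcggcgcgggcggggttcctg

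SLC3A2 (ENSG00000168003; chromosome 11, 62856102 to 62888875, plus strand), the heavy chain shared by SLC7A5 and other light chains, did not pass the test. It was at 69.1, 70.4 and 66.0 FPKM under Sh-NC and at 47.2, 58.9 and 62.0 FPKM under Sh-YAP1. The groups did not overlap, and Sh-YAP1 replicate 1 was the lowest library, as it was for SLC7A5. The mean was 68.5 ± 2.27 FPKM under Sh-NC and 56.0 ± 7.78 FPKM under Sh-YAP1 (SD, n = 3 each), with a difference of -0.29 (95% interval -0.56 to -0.03, adjusted p = 0.188, limma). Without Sh-YAP1 replicate 1 it was -0.18. The SLC3A2 total was spread over many of its 23 transcript entries. The largest, entry 4 in the order of the files, held 35.8% of it and was at 31.9, 24.7 and 21.4 FPKM under Sh-NC and at 15.5, 21.4 and 18.7 FPKM under Sh-YAP1. The next largest, entry 6, was at 13.7 to 18.1 FPKM under Sh-NC and at 14.8 to 23.6 FPKM under Sh-YAP1. Transcripts are numbered because the files give only their gene.

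The balance between the heavy chain and its partners was described without a test. SLC3A2 was at 0.732, 0.716 and 0.753 of the level of SLC7A5 under Sh-NC and at 0.791, 0.882 and 0.923 of it under Sh-YAP1. The 6 light chains of SLC3A2 considered (SLC7A5, SLC7A6, SLC7A7, SLC7A8, SLC7A10 and SLC7A11) summed to 117 ± 7.16 FPKM under Sh-NC and 90.2 ± 3.00 FPKM under Sh-YAP1 (SD, n = 3 each). SLC7A5 made up 78.8% to 80.6% of this sum in Sh-NC and 68.5% to 73.9% in Sh-YAP1. Relative to the whole sum, SLC3A2 was at 0.584 ± 0.0173 in Sh-NC and at 0.620 ± 0.0677 in Sh-YAP1 (SD, n = 3 each), and these ranges overlapped. SLC7A11, the cystine and glutamate exchanger, was the light chain with the higher values in Sh-YAP1, at 10.3, 11.0 and 12.2 FPKM under Sh-NC and 16.8, 14.4 and 15.0 FPKM under Sh-YAP1. Its difference of 0.43 did not pass the test (adjusted p = 0.0673, limma). SLC7A6, which exchanges cationic and neutral amino acids, had overlapping groups, with means of 12.4 ± 2.51 FPKM under Sh-NC and 9.90 ± 0.87 FPKM under Sh-YAP1 (SD, n = 3 each).

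SLC43A1 (ENSG00000149150; chromosome 11, 57484534 to 57515786, minus strand), known as LAT3, carries leucine and related amino acids without a heavy chain. It was at 6.13, 4.70 and 6.39 FPKM under Sh-NC and at 6.57, 6.28 and 6.74 FPKM under Sh-YAP1. The groups overlapped, and Sh-NC replicate 2 stood below the others. In that library the leading transcript entry was listed at 0 and entry 4 was at 3.69 FPKM, whereas in the other five libraries the leading entry was at 4.07 to 5.43 FPKM and entry 4 at no more than 0.22 FPKM. The difference of the gene was 0.17 (95% interval -0.11 to 0.45, adjusted p = 0.452, limma). Without Sh-NC replicate 2 it was 0.05.

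SLC7A1 (ENSG00000139514; chromosome 13, 29509410 to 29595688, minus strand), also CAT-1, takes up arginine and lysine. Its values had little spread within the groups, at 34.2, 33.1 and 33.6 FPKM under Sh-NC and 29.8, 29.6 and 30.3 FPKM under Sh-YAP1. All Sh-YAP1 libraries were below all Sh-NC libraries. The means, 33.7 ± 0.58 and 29.9 ± 0.35 FPKM (SD, n = 3 each), differed by -0.17 on the log2 scale (95% interval -0.31 to -0.02, adjusted p = 0.180, limma). One transcript entry held 98.7% of the total.

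**Figure D2:**
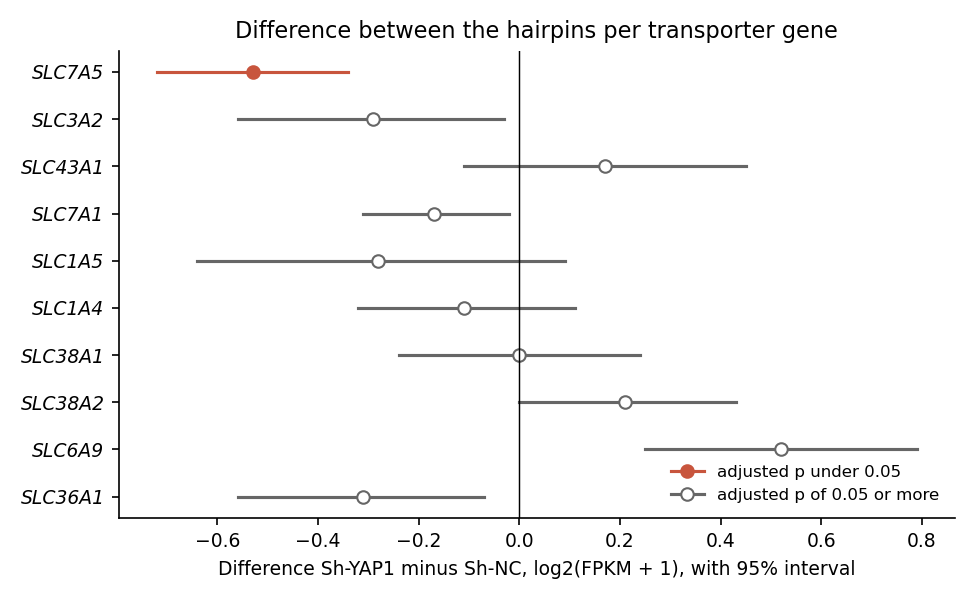
Difference between Sh-YAP1 and Sh-NC on the log2(FPKM + 1) scale (x axis) for each transporter gene (y axis), with 95% intervals from limma that are not adjusted for the number of genes, 3 libraries per group. Only SLC7A5 (filled red) has an adjusted p under 0.05; the interval of SLC38A1 runs from -0.24 to 0.24.

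SLC38A1 (ENSG00000111371; chromosome 12, 46183063 to 46270017, minus strand), also SNAT1, showed no detectable difference with the YAP1 hairpin. Its expression was 35.6, 34.3 and 42.6 FPKM under Sh-NC and 37.7, 35.0 and 39.5 FPKM under Sh-YAP1, and the groups overlapped fully. The means were 37.5 ± 4.48 and 37.4 ± 2.23 FPKM (SD, n = 3 each). The difference was 0.00 (95% interval -0.24 to 0.24, adjusted p = 0.999, limma), with p = 1 in the exact permutation test. Differences of up to 0.24 in either direction thus lie within the interval that these libraries allow. Replicate 3 was the highest in both groups. The leading entry, with 80.9% of the total, was at 29.3 to 30.4 FPKM under Sh-NC and at 29.6 to 32.4 FPKM under Sh-YAP1. Entry 4 was at 8.17 FPKM in Sh-NC replicate 3 and 7.08 FPKM in Sh-YAP1 replicate 3, and at 1.33 to 2.16 FPKM in the other four libraries, so that a high value of this entry stood beside the high totals of replicate 3.

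SLC38A2 (ENSG00000134294; chromosome 12, 46358189 to 46372867, minus strand), also SNAT2, is the closest relative of SLC38A1 among the members and is known to be induced when amino acids are scarce. It was the most abundant of the 10 genes in both groups, at 99.9, 102 and 109 FPKM under Sh-NC and 134, 109 and 119 FPKM under Sh-YAP1. The groups were just separate, since Sh-NC replicate 3 (108.80 FPKM) and Sh-YAP1 replicate 2 (109.04 FPKM) were nearly equal. The mean was 104 ± 4.59 FPKM under Sh-NC and 121 ± 12.7 FPKM under Sh-YAP1 (SD, n = 3 each), with a difference of 0.21 (95% interval 0.00 to 0.43, adjusted p = 0.235, limma). The antisense gene SLC38A2-AS1, which overlaps it on the other strand, was at no more than 0.12 FPKM. The ratio of SLC38A2 to SLC7A5 was 1.04 to 1.24 in Sh-NC and 1.63 to 2.25 in Sh-YAP1, given without a test.

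SLC1A5 (ENSG00000105281; chromosome 19, 46774883 to 46788594, minus strand), which exchanges glutamine for other neutral amino acids, had a wide spread in Sh-YAP1. It was at 71.5, 74.7 and 67.1 FPKM under Sh-NC and at 61.0, 46.5 and 70.7 FPKM under Sh-YAP1. Sh-YAP1 replicate 3 lay within the Sh-NC range, while replicate 2 was well under it. The means were 71.1 ± 3.83 and 59.4 ± 12.2 FPKM (SD, n = 3 each), and the difference of -0.28 did not pass the test (95% interval -0.64 to 0.09, adjusted p = 0.340, limma). Without Sh-YAP1 replicate 2 it was -0.11, and without Sh-YAP1 replicate 3 it was -0.41. Its entry 2 was at 18.6 FPKM in Sh-NC replicate 2 and 12.9 FPKM in Sh-YAP1 replicate 1, against 1.34 to 1.66 FPKM in the other four libraries.

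SLC1A4 (ENSG00000115902; chromosome 2, 64988477 to 65023865, plus strand), also ASCT1, carries alanine, serine and cysteine, and it was the least abundant member. It was at 1.72, 1.66 and 1.71 FPKM under Sh-NC and at 1.39, 1.58 and 1.55 FPKM under Sh-YAP1. Although the groups did not overlap, the difference was small (-0.11, 95% interval -0.32 to 0.11, adjusted p = 0.541, limma). It was -0.07 without Sh-YAP1 replicate 1 and -0.19 when transcripts averaging under 0.1 FPKM were left out of the sum. At this level the added 1 makes the log2 difference smaller than the ratio, and the mean was 11.2% lower in Sh-YAP1.

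SLC6A9 (ENSG00000196517; chromosome 1, 43991500 to 44031467, minus strand), the glycine transporter GlyT1, had the largest positive difference of the 10 genes. It was at 10.5, 10.6 and 9.03 FPKM under Sh-NC and at 16.6, 15.0 and 13.0 FPKM under Sh-YAP1, without overlap. The mean was 47.7% higher in Sh-YAP1, at 14.8 ± 1.79 FPKM (SD, n = 3), and the difference was 0.52 (standard error 0.11, 95% interval 0.25 to 0.79). Its adjusted p of 0.0630 (limma) was above the threshold. Several transcripts made up this total. The leading entry 5 was at 5.17, 8.88 and 4.59 FPKM under Sh-NC and at 7.66, 7.02 and 7.49 FPKM under Sh-YAP1, so for this entry the groups overlapped. Entry 3 was at 2.87 FPKM in Sh-NC replicate 3, at 4.10 and 2.94 FPKM in Sh-YAP1 replicates 1 and 2, and was listed at 0 in the other three libraries. CCDC24, which overlaps SLC6A9 on the opposite strand, was at 1.47 to 3.39 FPKM.

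SLC36A1 (ENSG00000123643; chromosome 5, 151437046 to 151492381, plus strand), also PAT1, moves small amino acids out of the lysosome together with protons. It was at 9.58, 8.22 and 9.97 FPKM under Sh-NC and at 7.89, 6.85 and 6.98 FPKM under Sh-YAP1. Without overlap, the means of 9.26 ± 0.92 and 7.24 ± 0.57 FPKM (SD, n = 3 each) differed by -0.31 (95% interval -0.56 to -0.07, adjusted p = 0.142, limma). The separation lay mostly in a minor transcript. Entry 1 was at 1.79, 1.09 and 2.50 FPKM under Sh-NC and at 0.59, 0.59 and 0.44 FPKM under Sh-YAP1 (unadjusted p = 0.0134, adjusted p = 0.645, limma over all transcripts). The leading entry 2, with 78.5% of the total, was at 6.43 to 6.99 FPKM under Sh-NC and at 5.74 to 6.61 FPKM under Sh-YAP1, and the groups overlapped.

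**Figure D3:**
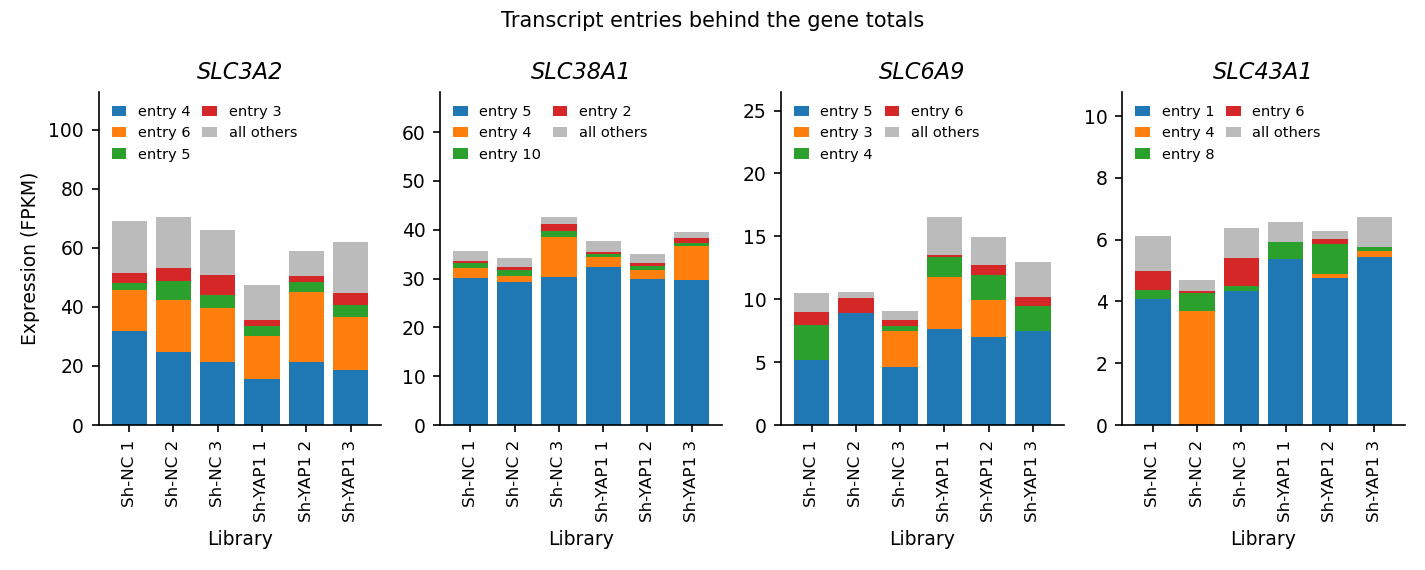
Stacked bars of the FPKM (y axis) of the 4 most abundant transcript entries and of all others in each of the 6 libraries (x axis) for SLC3A2, SLC38A1, SLC6A9 and SLC43A1. In SLC43A1, entry 1 is missing in Sh-NC replicate 2, where entry 4 is at 3.69 FPKM, and in SLC38A1 entry 4 is at 8.17 and 7.08 FPKM in replicate 3 of each group.

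The 10 genes have 98 transcript entries in the files, of which 64 had a mean of at least 0.1 FPKM and were tested. None was called (limma, Benjamini-Hochberg over 77655 transcripts), beside 0.0515% of all transcripts tested, and 6 had an unadjusted p under 0.05, beside 6.12%. Of the 64 entries, 30 had a positive and 34 a negative difference. A further 14 of the 98 were listed at 0 in all 6 libraries.

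The order of the levels was the same in both groups: SLC38A2, SLC7A5, SLC1A5, SLC3A2, SLC38A1, SLC7A1, SLC6A9, SLC36A1, SLC43A1 and SLC1A4, from 104 to 1.70 FPKM under Sh-NC and from 121 to 1.51 FPKM under Sh-YAP1. In Sh-NC the ranges of neighbours overlapped for SLC1A5 and SLC3A2 and for SLC6A9 and SLC36A1. In Sh-YAP1 they overlapped for SLC7A5 and SLC1A5 and for SLC1A5 and SLC3A2, so that SLC7A5 no longer stood apart from SLC1A5. The 10 genes together were at 433, 438 and 433 FPKM under Sh-NC and at 402, 376 and 417 FPKM under Sh-YAP1.

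Among the genes of the lists described next, those whose values lay closest to SLC7A5 over the 6 libraries, each centred on its own mean, were GOT2, LAMTOR1 and CHAC1. Their root mean square differences from SLC7A5 were 0.096, 0.121 and 0.124 on the log2(FPKM + 1) scale. The closest to SLC38A1 were DEPDC5 (0.063), BMT2 (0.067) and FARSB (0.075). For SLC7A5, genes with a difference between the group means under 0.1 were left out of this comparison.

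Of 14 further light chains, cationic carriers and relatives, 9 were under the filter and none of the 5 tested was called, with 1 at an unadjusted p under 0.05 (SLC7A11), beside 21.9% of all genes tested. Of 22 further sodium-coupled carriers, 8 were tested and none was called, with 2 at an unadjusted p under 0.05 (limma), a share near that of all genes. These were the taurine transporter SLC6A6, at 48.3, 24.3 and 41.3 FPKM under Sh-NC and 55.3, 67.3 and 53.8 FPKM under Sh-YAP1 (adjusted p = 0.186, limma), and SLC1A7, a member of the glutamate transporter family, with 1.07 ± 0.05 and 0.48 ± 0.24 FPKM (SD, n = 3 each, adjusted p = 0.110, limma). Of 7 further lysosomal carriers, 2 were under the filter, and none of the 5 tested was called or reached an unadjusted p under 0.05 (limma). SLC36A4 was at 6.37 ± 0.36 FPKM under Sh-NC and 4.83 ± 1.17 FPKM under Sh-YAP1, and SLC38A9, the lysosomal arginine sensor, at 10.1 ± 1.58 and 8.97 ± 1.04 FPKM (SD, n = 3 each).

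Leucine that enters through SLC7A5 is sensed by mTORC1 at the lysosome, where the LAMTOR complex anchors the RAG GTPases. Of 30 genes of this sensing machinery, 29 were tested and none was called, and 6 had an unadjusted p under 0.05 (limma), 3 in each direction, a share near the 21.9% of all genes tested. LAMTOR1, the anchor of the LAMTOR complex, was at 43.0, 53.9 and 41.4 FPKM under Sh-NC and at 28.1, 27.7 and 34.3 FPKM under Sh-YAP1. Its difference of -0.60 was the largest of the list in size and had an adjusted p of 0.0639 (limma). CASTOR1, an arginine sensor, was at 2.72 ± 0.92 FPKM under Sh-NC and 4.24 ± 0.69 FPKM under Sh-YAP1 (SD, n = 3 each, adjusted p = 0.217, limma). The median difference of the list was -0.02.

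When amino acids run short, the kinase GCN2 (EIF2AK4) raises translation of ATF4, which induces transporter and synthesis genes. Of 27 genes of this response, 24 were tested and 2 were called, both higher in Sh-YAP1, where 1.75% of all genes tested were called higher. An unadjusted p under 0.05 (limma) was reached by 7 of the 24, 3 higher and 4 lower in Sh-YAP1, beside 21.9% of all genes tested. TRIB3, a pseudokinase that restrains ATF4, rose from 5.33, 4.46 and 4.93 FPKM under Sh-NC to 7.47, 8.60 and 8.33 FPKM under Sh-YAP1 (difference 0.63, standard error 0.10, adjusted p = 0.0257, limma). DDIT4, an inhibitor of mTORC1, rose from 74.3 ± 4.86 to 97.3 ± 3.96 FPKM (SD, n = 3 each, difference 0.39, adjusted p = 0.0472, limma). CHAC1, which degrades glutathione, averaged 6.30 ± 0.39 FPKM under Sh-NC and 4.25 ± 0.46 FPKM under Sh-YAP1 (SD, n = 3 each), without overlap and with a difference of -0.48 (adjusted p = 0.0571, limma). ATF4, named after its values were seen, was at 20.5, 57.3 and 26.5 FPKM under Sh-NC and at 22.9, 21.4 and 65.5 FPKM under Sh-YAP1, a spread within the groups far larger than the difference of 0.02. Over the 24 genes, 12 differences were positive and 12 negative, with a median of 0.00.

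Of the 20 cytosolic aminoacyl-tRNA synthetases, which load amino acids onto tRNA, all were tested and none was called, with 6 at an unadjusted p under 0.05 (limma), 3 in each direction, beside 21.9% of all genes tested. LARS1, the leucine enzyme and a leucine sensor, was at 30.6 ± 1.91 FPKM under Sh-NC and 40.5 ± 2.36 FPKM under Sh-YAP1, and GARS1, the glycine enzyme, at 77.5 ± 3.42 and 60.4 ± 10.7 FPKM (SD, n = 3 each). Their differences were 0.39 and -0.37, with adjusted p-values of 0.0542 and 0.177 (limma). Of 18 enzymes of glutamine and branched-chain amino acid metabolism, 16 were tested and 1 was called, higher in Sh-YAP1, beside 1.75% of all genes tested. An unadjusted p under 0.05 (limma) was reached by 5 of the 16, 2 higher and 3 lower in Sh-YAP1, beside 21.9% of all genes tested. BCKDHA, a subunit of the complex that commits branched-chain keto acids to breakdown, rose from 13.0, 14.4 and 11.8 FPKM under Sh-NC to 18.1, 19.2 and 18.8 FPKM under Sh-YAP1 (difference 0.49, standard error 0.09, adjusted p = 0.0396, limma). GLUL, glutamine synthetase, was at 6.13 ± 2.48 FPKM under Sh-NC and 3.68 ± 0.16 FPKM under Sh-YAP1 (SD, n = 3 each). Its Sh-NC libraries were at 4.30, 8.96 and 5.14 FPKM, so replicate 2 stood apart and carried much of this gap. The mitochondrial aspartate transaminase GOT2 was at 119 ± 7.48 and 92.1 ± 4.41 FPKM (SD, n = 3 each). Neither GLUL nor GOT2 passed the test (adjusted p = 0.222 and 0.0571, limma). The calls of TRIB3, DDIT4 and BCKDHA, like that of SLC7A5, were lost when any of the 6 libraries was left out. They were also lost without the filter on low values. Those of DDIT4 and BCKDHA were lost without the mean-variance trend as well (adjusted p = 0.0738 and 0.0504, limma). Without the transcript that differed most in each gene, DDIT4 and BCKDHA each had a difference of -0.08 (adjusted p = 0.998, limma).

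Of 10 regulators listed (YAP1, WWTR1, TEAD1 to TEAD4, MYC, HIF1A, EPAS1 and NFE2L2), YAP1 alone was called. Its relative WWTR1 (TAZ) and EPAS1, named after their values were seen, also had an unadjusted p under 0.05, with differences of 0.20 and 0.28 (adjusted p = 0.164 and 0.113, limma). NFE2L2, which controls SLC7A11 among other genes, was at 37.6, 40.5 and 44.5 FPKM under Sh-NC and at 44.6, 12.4 and 47.6 FPKM under Sh-YAP1. Its low value in Sh-YAP1 replicate 2 stood apart from the other libraries. SLC7A11 was at 14.4 FPKM in that library, and a link between these genes was not tested.

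**Figure D4:**
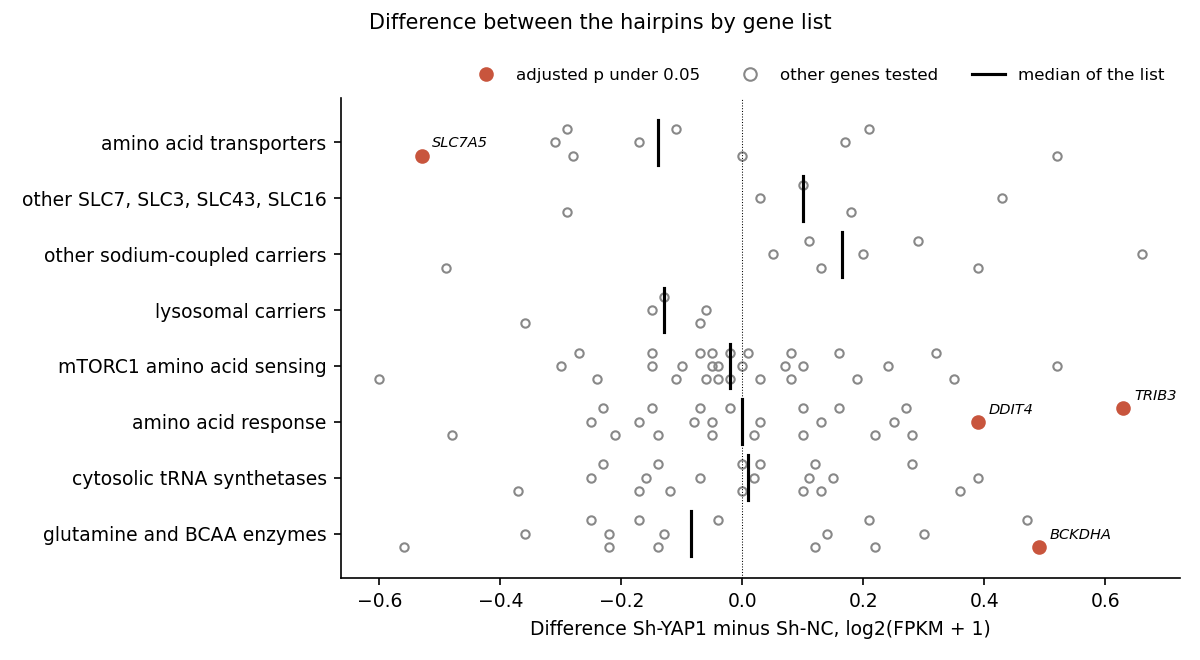
Difference between Sh-YAP1 and Sh-NC on the log2(FPKM + 1) scale (x axis) of every tested gene in the 8 lists without the regulators (y axis), with black lines at the list medians and called genes in red. SLC7A5 is called at -0.53, and TRIB3, DDIT4 and BCKDHA at 0.63, 0.39 and 0.49.

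Promoter windows of the 10 transporters, each from 250 bases before to 50 bases after a start, were read from RefSeq (GRCh38.p14), and all 10 genes matched, with 18 windows. Each motif was searched on both strands. The TEAD motif GGAATG was found in 1 of the 18 windows, window 3 of the 3 of SLC1A5, or 5.56%, and in 14.0% of all 35116 promoter windows. The E-box CACGTG was found for 4 of the 10 (SLC7A5, SLC1A5, SLC43A1 and SLC36A1), that is 4 of 18 windows or 22.2%, and in 7.26% of all windows. TGATGNAA, the composite element to which ATF4 and C/EBP proteins bind, was found for 5 of the 10, in 27.8% of the 18 windows and in 3.62% of all windows. Windows of 1 gene and of neighbouring starts can overlap, and a match is a run of letters and not a bound site. The 5 matches are shown because more of the members held this motif than either other one. They have 10 bases on either side where the window allows and the element in capitals.
SLC3A2: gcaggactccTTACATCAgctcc
SLC1A5: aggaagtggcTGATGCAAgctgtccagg
SLC1A4: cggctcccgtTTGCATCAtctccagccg
SLC7A1: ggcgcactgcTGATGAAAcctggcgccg
SLC38A1: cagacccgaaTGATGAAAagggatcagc
They lie at chr11:62881726-62881748 (plus strand), chr19:46784894-46784921 (minus), chr2:64989382-64989409 (plus), chr13:29595664-29595691 (minus) and chr12:46266503-46266530 (minus), in this order. SLC3A2 and SLC1A4 hold the element on the reverse strand. No match of TGATGNAA was found in the windows of the other five, SLC7A5 among them.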

How the data were processed

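RNA of MDA-MB-231 cells was sequenced, 3 libraries per group. The study's methods name LC-Bio as the provider, but beside another series identifier than that of these files, so the match of methods to files rests on cell line and hairpin. The authors deposited FPKM per transcript with 2 decimals and the gene identifier but no transcript identifier. The submitters' processing notes name Bowtie 0.12.2, HISAT2 2.0 and hg19. The quantification tool, annotation and filters are not given in the sources used here. The files give no counts, so depth is unknown and errors come from the spread between libraries. How reads shared between transcripts were divided is part of the values.

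The 229420 transcripts were summed to 60612 genes, of which 58394 were found in GENCODE 29 (GRCh38). Values were analysed as log2(FPKM + 1). Genes averaging 0.5 FPKM or more, and transcripts averaging 0.1 FPKM or more, were compared by limma 3.58.1 (mean-variance trend) in R 4.3.3, with Benjamini-Hochberg adjustment. Permutation tests used scipy 1.17.1 in Python 3.11.15, and figures matplotlib 3.10.9. Simulated data with known changes were used to test the scripts.

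The members and gene lists were chosen with earlier results of these data known. Named genes were the members, YAP1, the genes called in each list or, where fewer than 2 were called, also the 2 with the largest differences, and the genes closest to SLC7A5 and SLC38A1. Cell type markers, ATF4, WWTR1 and EPAS1 stand outside this rule. Alternatives covered pseudocount, scaling, trend, filter, transcripts, replicate block and each library left out.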

Additional observations from a re-analysis of the deposited data

How the results depend on the processing

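The direction and side of the threshold of SLC7A5 stayed the same with other pseudocounts, scalings, no trend, a stricter filter or without minor transcripts. Its call was lost without a filter (adjusted p = 0.107), with the replicate block (0.131) and with any library left out (0.0559 to 0.0961), all from limma, while the difference stayed between -0.57 and -0.47. The number of members called was then 0 under each of these settings and also without the transcript that differed most in each gene, where SLC7A5, SLC1A4 and SLC7A1 were under the filter and could not be tested. That setting gave SLC43A1 a difference of -0.68, where the entry removed was the one listed at 0 in Sh-NC replicate 2, and SLC38A1 one of -0.11. SLC38A1 was also at -0.02 with median centring, at 0.00 with minor transcripts left out, and between -0.06 and 0.09 with single libraries left out. Every other member kept its direction and its side of the threshold under all alternatives in which it was tested. What remained of SLC7A5, SLC1A4 and SLC7A1 without the transcript that differed most, under the filter and untested, had differences of 0.13, 0.15 and -0.61. No member transcript was called under any alternative run.

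Of all genes, 499 were called in the main comparison, 103 without a filter, 5 without the transcript that differed most, and 78 to 171 with single libraries left out. In the pathway lists, regulators included, 4 genes were called, 5 when scaled to equal totals or with a filter of 1 FPKM, but 2 without the trend, 1 without a filter, with the replicate block or with any library left out, and 0 without the transcript that differed most. YAP1 then had a difference of -2.46 (adjusted p = 0.0570, limma), and it was called under every other alternative. By construction, leaving out a library leaves 5 libraries, and the setting without a filter tests 60612 genes in place of 14770. The cause was not tested for the other settings.

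A replicate block left 1 gene called among all genes, YAP1, and 0 members. After subtraction of the group means, libraries that share a number had correlations across genes of -0.028, 0.062 and 0.004. Of 6 libraries, 2 correlated best with their own number. The labels state no pairing, and with 3 libraries per group these values cannot settle whether the numbers pair the libraries. Adding the copies of SLC7A5 was chosen after seeing the data. Unknown depth limits what can be said of SLC1A4 and of minor transcripts.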
